A study of Mus musculus with 24 samples.

Results

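The cells described here are glutamatergic neurons of mouse motor cortex, divided by whether they carried RNA of an activity-dependent reporter. A cell was a member when it held at least 1 UMI (a counted RNA molecule) of Slc17a7, the vesicular glutamate transporter of cortical excitatory neurons. It also had to hold none of Gad1 and Gad2, the enzymes of GABA synthesis, and at least 2000 UMIs in all. In the trained mice 10854 of 35672 kept cells met this rule, and 2099 of them (19.3%) held at least 1 UMI of wpre, the reporter feature added to the gene list. These are the wpre-positive cells. The other 8755 members held none. Cells were thus chosen by their UMIs of wpre, Slc17a7, Gad1 and Gad2, which were not tested. Of these, only the wpre UMIs are described below.

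All mice were Fos-CreER::Ai9 and all received 4-hydroxytamoxifen (4-OHT). Mice of the early group had trained on a forelimb reaching task for 2 days and mice of the late group for 8 days. Control mice were not trained. Tissue was collected 3 days after labelling, and each library held 1 hemisphere of primary motor cortex pooled from 2 mice. The 8 trained libraries formed 4 pools, named here early pools 1 and 2 and late pools 1 and 2, and the 4 control libraries formed control pools 1 and 2. The pool was the replicate. The mice of a pool were not separated, and the labels used here do not give age or strain.

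In a Fos-CreER mouse the promoter of the immediate early gene Fos drives a recombinase that enters the nucleus only in the presence of 4-OHT. Neurons that were strongly active at that time recombine the Ai9 allele and then keep transcribing tdTomato from the Rosa26 locus, long after Fos itself has returned to its resting level. The Ai9 transcript carries the woodchuck hepatitis virus posttranscriptional regulatory element, WPRE, near its polyadenylation site, where a 3' library reads it. Cortical glutamatergic neurons comprise several projection classes. Intratelencephalic (IT) neurons of layers 2 to 6 project within the cortex and to striatum, and Cux2 marks the upper of these layers and Rorb the middle. Fezf2 is highest in deep-layer neurons that project out of the telencephalon, and Foxp2 in corticothalamic neurons of layer 6. Near-projecting neurons of layers 5 and 6, marked by Tshz2, and the subplate-derived cells of layer 6b, marked by Cplx3, are further deep classes.

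The trained libraries held 16801721 to 29350160 UMIs, and 3436 to 6606 cells per library were kept, with medians of 2023 to 3613 UMIs. Of the members, 96.6% lay in clusters named glutamatergic neuron-like from their markers, and 371 did not. Over 60 pairs of motor cortex libraries from different pools, 0 to 92 cell barcodes were shared, and over 6 pairs from the same pool, 3 to 96. The 92 were shared by a library of late pool 1 and one of control pool 1. The 96 were shared by the 2 libraries of late pool 1. Pairs across these 2 pools shared 5 to 92, the 5 with the left control library, which held only 541 barcodes. Libraries of these 2 pools shared 0 to 3 with those of the remaining pools. The remaining pools shared 2 to 9 per pair of libraries from different pools. The labels give late pool 1 and control pool 1 the same sequencing batch, early pool 1 and control pool 2 another, and early pool 2 and late pool 2 one each. Summed over 9 tested markers, glutamatergic genes reached 6255 to 7709 CPM (UMIs scaled to an equal total for every sum of cells) in the wpre-positive cells of the 4 trained pools. Interneuron markers reached 26.3 to 54.1 CPM.

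The wpre-positive share differed between pools within a stage by more than between stages. In early pool 1, 29.8% of 1980 members were positive (Wilson 95% interval 27.9 to 31.9), and in early pool 2, 14.4% of 2926 (13.2 to 15.7). In late pool 1 the share was 23.6% of 2710 (22.0 to 25.2), and in late pool 2, 13.8% of 3238 (12.66 to 15.04). The untrained controls held 17.8% of 2149 and 22.8% of 3298. Both control values fell inside the range of the trained pools.

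Depth differed as well. Early pool 1, with the highest share, had the deepest members (median 12822.5 UMIs), and the medians of early pool 2, late pool 1 and late pool 2 were 5548.5, 8564.5 and 7025. After each cell was thinned to 2000 UMIs, the shares of the 4 trained pools were 8.94%, 6.46%, 8.93% and 4.08%, in the order early 1, early 2, late 1 and late 2. In the controls they were 7.82% and 6.67%. Intervals cover counting error only.

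The share at 1 UMI was set beside that of microglia-like cells, a non-neuronal type. Neither free RNA in the droplets nor recombination in microglia was measured. At 2000 UMIs, 8.33% of the glutamatergic-like cells and 6.48% of the microglia-like cells of early pool 1 held wpre. The pairs were 6.53% and 4.88% in early pool 2, 8.60% and 7.13% in late pool 1, and 4.23% and 2.86% in late pool 2. The neurons were above the microglia in all 4 pools, by under 2 percentage points, and the Wilson intervals overlapped in each pool. In early pool 1 they were 7.18 to 9.64 and 5.28 to 7.92, and in late pool 2, 3.60 to 4.97 and 1.23 to 6.51. Astrocyte-like cells (21.7% to 33.3%), endothelial-like cells (24.5% to 30.5%) and mural-like cells (24.7% to 32.8%) were far above both. Oligodendrocyte precursor-like cells (8.53% to 12.8%) were also above the neurons in each pool. Whole-cell median depth was 5539 to 13386 UMIs in the glutamatergic-like and 2165 to 2940 in the microglia-like cells.

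A small group of neurons held most of the wpre UMIs. Of the positive members, 74.7% held a single wpre UMI. At the other end, 243 members held 4 or more, up to 42. These 243 cells were 2.24% of all members and 11.6% of the positive ones, and they held 59.9% of the wpre UMIs. In early pool 1 the bins of 1, 2, 3, 4 to 7, 8 to 15 and 16 or more wpre UMIs held 423, 91, 18, 11, 7 and 41 cells. The last 3 bins span more values than the first 3. Cells of other types were counted here only with at least 2000 UMIs. This left out 290, 826, 2696 and 1060 microglia-like cells in early pools 1 and 2 and late pools 1 and 2. Those counted there were 1343, 410, 1599 and 175. No microglia-like cell counted in any pool held more than 3. Vascular cells did: 2.54% to 7.81% of endothelial-like cells (up to 26 UMIs) and 1.08% to 4.17% of mural-like cells (up to 35) held 4 or more in the trained pools. At equal depth of 2000 UMIs, 2.53%, 1.71%, 3.1% and 0.556% of members in early pools 1 and 2 and late pools 1 and 2 held at least 2 wpre UMIs. In microglia-like cells these shares were 0.298%, 0.244%, 0.2502% and 0%. Endothelial-like cells, at 6.35%, 7.81%, 10% and 9.43%, were above the members in each of these pools. So were mural-like cells, at 7.34%, 12.5%, 7.53% and 4.63%. Astrocyte-like cells, at 4.76%, 0%, 4.75% and 2.70%, were above the members in all but early pool 2.

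**Figure D1:**
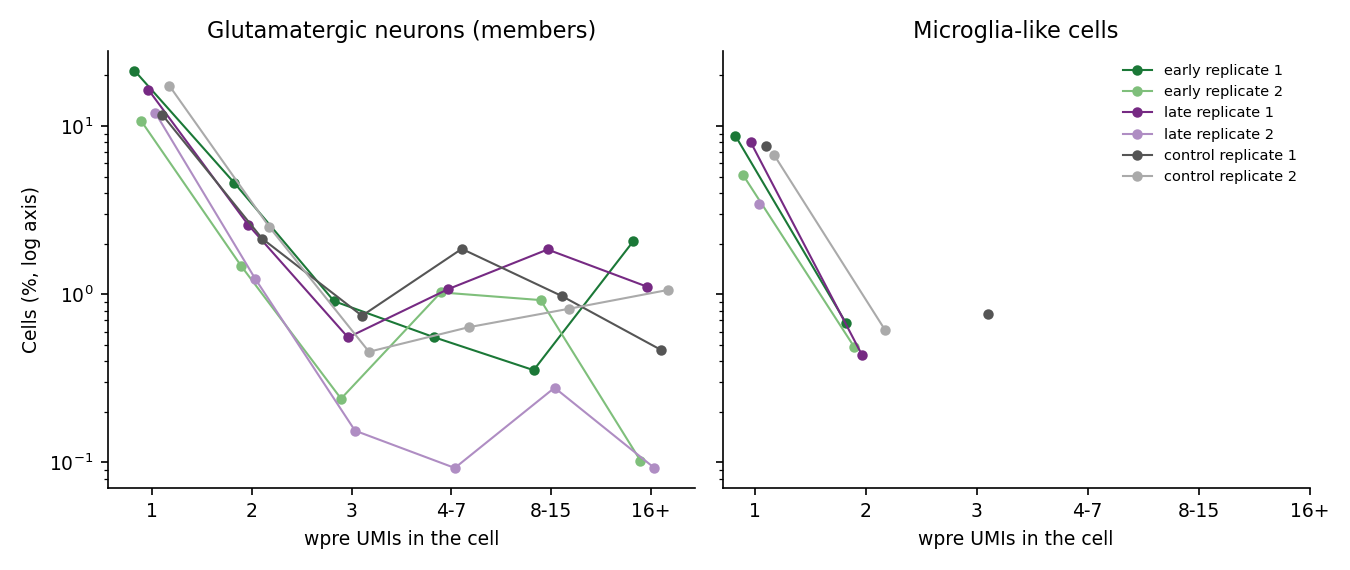
Share of cells (percent, log axis) with each number of wpre UMIs, for members (left) and microglia-like cells (right), all with at least 2000 UMIs. Each line is 1 pool and empty bins are not drawn. Microglia-like cells end at 3 UMIs, whereas members extend to 16 or more, with 243 trained cells at 4 or more; the bins above 3 are wider than the others, so that heights are not comparable across them.

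The coding part of the reporter followed the same division. The feature tdtomato was found in 29 of the 243 cells with at least 4 wpre UMIs (11.9%) and in 6 of the 1856 cells with 1 to 3 (0.323%). Among members without wpre it was found in 0.103%. The tdtomato share of the strongly positive cells was 23.7%, 18.3% and 20% in early pool 1, early pool 2 and late pool 2. It was 0.917% in late pool 1 and 1.41% in control pool 1, the pools of 1 shared batch, and 15.7% in control pool 2. The threshold of 4 UMIs was chosen after these values were seen. Results below are given for the rule's threshold of 1 UMI and, as an addition, for cells with at least 4 against cells with none.

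Strongly positive cells were found in every pool, trained or not. They numbered 59 in early pool 1 (2.98% of members), 60 in early pool 2 (2.05%), 109 in late pool 1 (4.02%) and 15 in late pool 2 (0.463%). The control pools held 71 (3.30%) and 83 (2.52%). Late pool 2 was the lowest of the 6, and both controls fell within the range of the trained pools. The contralateral hemisphere, opposite the trained limb, held 4.76% and the ipsilateral 3.12% in late pool 1, and 0.578% and 0.357% in late pool 2. In early pool 1 the contralateral share was 2.82% and the ipsilateral 3.13%, and in early pool 2 they were 1.95% and 2.14%. Hemispheres of the untrained mice differed too. The left held 6.05% (of 215 members) and the right 3.00% in control pool 1, and 2.77% and 2.12% in control pool 2.

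Strongly positive neurons were unevenly spread over the projection classes. The glutamatergic-like cells formed 17 second-level clusters, built without the reporter features, and a cluster was given an identity when at least 3 genes of a layer list marked it. In the layer 2/3 IT-like clusters 53 of 1854 trained members (2.86%, Wilson 2.19 to 3.72) held at least 4 wpre UMIs. In the layer 4/5 IT-like clusters it was 44 of 1854 (2.37%, 1.77 to 3.17). In 7 clusters that no list marked with 3 genes it was 122 of 2388 (5.11%, 4.30 to 6.07), of which late pool 1 gave 1063 members and 79 strongly positive cells. By pool their share was 4.72% and 4.53% in early pools 1 and 2, 7.43% and 0.656% in late pools 1 and 2, and 4.11% and 4.73% in the controls. The 4 largest of these were led by Osr1, Nnat and Oprk1, by Rspo1, Adam33 and Kcnab3, by Il1rapl2, Ptprm and Deptor, and by Npy, Nnat and Gm2694.

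The deep classes that project to thalamus or locally held few. In the layer 6 corticothalamic-like clusters 17 of 3016 members (0.564%, 0.352 to 0.901) were strongly positive, so that 27.8% of the members held 6.996% of the strongly positive cells. Layer 6b-like cells held 4 of 661 (0.605%, 0.236 to 1.55). The near-projecting-like cluster held 0 of 670 (Wilson upper limit 0.570%), and 3 cells, the limit taken for a count of 0, would be 0.448%. Layer 5 extratelencephalic-like cells were too few to place, with 0 of 40 (Wilson upper limit 8.76%, or 7.5% for 3 cells) in the trained pools and 1 of 12 and 1 of 14 in the controls. Median depth was 7843 UMIs in the layer 2/3 IT-like, 5455 in the layer 4/5 IT-like, 7606 in the corticothalamic-like, 6619.5 in the near-projecting-like and 10127 in the layer 6b-like cells, and its part in these shares was not tested. At an equal depth of 2000 UMIs the share with at least 1 wpre UMI was 12.5%, 6.68%, 9.18% and 3.54% in the layer 2/3 IT-like cells of early pools 1 and 2 and late pools 1 and 2. In the corticothalamic-like cells it was 5.10%, 6.03%, 4.78% and 4.22%, so that late pool 2 went the other way.

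The layer 2/3 IT-like and corticothalamic-like shares were also compared pool by pool. In early pool 1 the layer 2/3 IT-like share was 5.37% and the corticothalamic-like share 1.18%. In early pool 2 they were 2.61% and 0.503%, in late pool 1 4.00% and 0.725%, and in late pool 2 0.417% and 0.196%. The control pools gave 4.59% and 0.943%, and 2.88% and 0.705%. The layer 2/3 IT-like share was the higher in all 6 pools, although late pool 2 rests on 2 cells in each class. The order of the other classes changed between pools. The layer 4/5 IT-like share was above the layer 2/3 IT-like share in late pool 1 (5.66%), late pool 2 (1.08%) and both controls (8.45% and 3.63%), and below it in both early pools. It rests on 6 of 106 members in late pool 1 and 6 of 71 in control pool 1. The cluster led by Rspo1, Adam33 and Kcnab3, marked by only 2 genes of the layer 4/5 IT list, was left out of this class. That cluster held 719 members of late pool 1 (58 strongly positive) and 441 of control pool 1 (15). Clusters drew unequally on the pools: 4 of the 17, among them a layer 2/3 IT-like and a corticothalamic-like one, came mainly from late pool 1 and control pool 1.

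**Figure D2:**
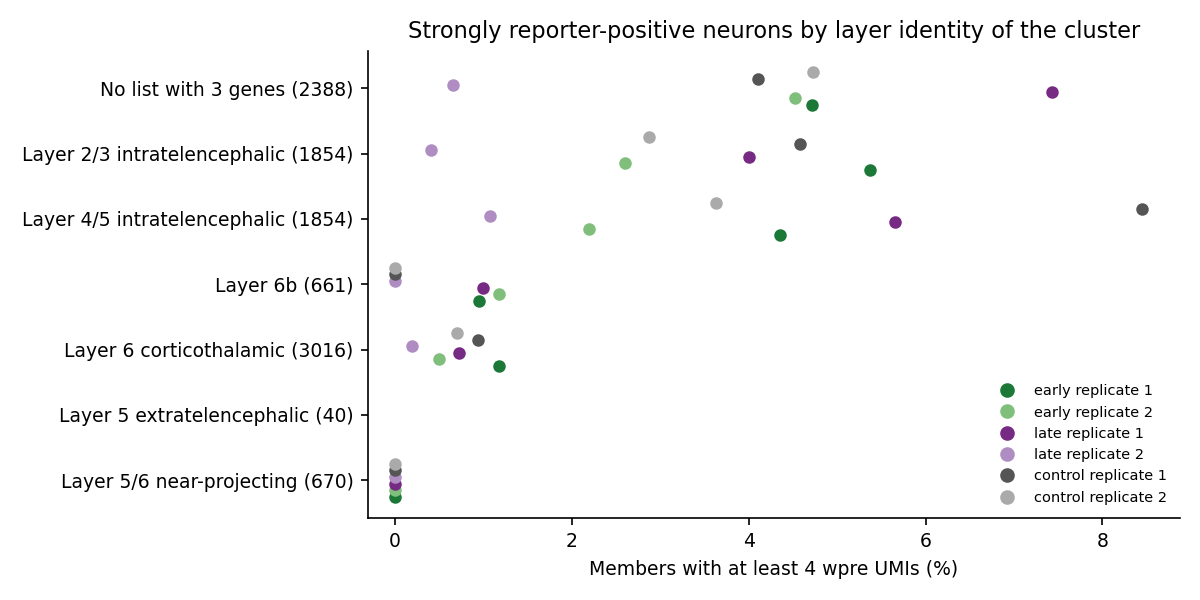
Members with at least 4 wpre UMIs (percent) by layer identity of the second-level cluster, with the number of trained members in brackets; each point is 1 pool with at least 20 members in that class, and a class with no such pool, the layer 5 extratelencephalic-like one, has no point. Near-projecting-like cells lie at 0 in all pools and corticothalamic-like cells below layer 2/3 IT-like cells in all 6.

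The same direction was seen with single marker genes. Each member was placed in a layer class by whichever of Cux2, Rorb, Fezf2 and Foxp2 had the most UMIs in it, as mixed on a tie and as none when all were at 0. Among cells with at least 4 wpre UMIs the Cux2 class made up 25.4%, 26.7%, 22.0% and 20.0% in early pools 1 and 2 and late pools 1 and 2. Among negative cells matched on total UMIs it made up 15.8%, 16.1%, 16% and 8.89%. The mean difference was 9.32 percentage points ± 2.29 (SD, n = 4 pools), with the strongly positive cells higher in 4 of 4.

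The Foxp2 class moved the other way. It made up 3.39%, 1.67%, 3.67% and 0% of the strongly positive and 21.5%, 12.8%, 17.2% and 6.67% of the matched negative cells. The difference was -12.4 ± 4.77 percentage points, lower in 4 of 4 pools. The Fezf2 class differed by -9.49 ± 5.04, also lower in 4 of 4, and the Rorb class by 10.5 ± 11.3, higher in 3 of 4. The exact two-sided sign-flip permutation test over 4 pools cannot give a p below 0.125. It gave 0.125 for Cux2, Fezf2 and Foxp2 (0.25 after Benjamini-Hochberg adjustment over the 6 classes) and 0.25 for Rorb (0.375).

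At the threshold of 1 UMI the layer classes were close to those of the matched negatives. The Cux2 class differed by 0.59 ± 1.21 percentage points, Rorb by 0.16 ± 3.12, Fezf2 by -3.02 ± 2.92 and Foxp2 by -1.65 ± 3.98 (SD, n = 4). Cells with none of the 4 genes were the only class on 1 side in all pools, at 3.77 ± 2.36 points more in the positive cells. The exact sign-flip p was 0.125 for this class (0.75 adjusted), and 0.25 or more for the others.

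Gene expression was compared on UMIs summed per pool, after each wpre-positive cell had been paired with 1 negative cell of the same library within 0.05 log10 of its total UMIs. For 2091 positive cells such a partner was found. Of 13294 genes tested, 112 (0.842%) were called at an adjusted p under 0.05, 48 higher (0.361%) and 64 lower (0.481%) in positive cells. The lower genes included markers of near-projecting and layer 6b neurons and of microglia, and the haemoglobin gene Hba-a1 (-1.58 on the log2 scale). The higher ones included activity-induced secreted factors, the neuropeptide gene Npy, and genes of glia and vessels. DESeq2 called 7 genes, and 3 negatives per positive gave 262. Leaving out early pool 1 left 17 calls, and leaving out early pool 2 left 47.

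Tshz2, a zinc-finger transcription factor gene of near-projecting neurons (chr2:169633013-170071816, plus strand, GRCm38), was lower in positive cells, as were other genes of this class. It was at 62.8 CPM in positive and 139 in negative cells of early pool 1, 34.2 and 68.5 in early pool 2, 46.4 and 112 in late pool 1, and 26.1 and 95.5 in late pool 2. Positive cells were lower in each pool, and the highest positive value lay below the lowest negative one. The log2 difference was -1.27 (SE 0.07, adjusted p 1.6e-11). Of the 6 near-projecting genes tested, 5 were called lower and none higher (Tshz2, Lypd1, Etv1, Trhr and Sla2), with a list median of -1.01, against 0.00 over all genes.

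Layer 6b and layer 5 extratelencephalic lists also held lower genes. Cplx3, a complexin of the vesicle release machinery, was at 106, 81.0, 84.1 and 148 CPM in positive cells of early pools 1 and 2 and late pools 1 and 2. In negative cells it was at 199, 127, 162 and 145. It was lower in 3 pools and level in late pool 2, with a log2 difference of -0.68 (SE 0.09, adjusted p 9.7e-05). Nxph4 was the other called gene of 4 in that list, and Bcl11b, Fezf2 and Crym were called lower among 6 extratelencephalic genes. Of 7 corticothalamic genes only Tle4 was called, and of 8 layer 2/3 genes only Nptx2, which is also an activity-induced gene.

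Of the 4 genes that define the layer classes, 1 was called at this threshold. Fezf2 had a log2 difference of -0.30 (SE 0.06, adjusted p 0.019). Its values in positive and negative cells were 62.3 and 85.4, 55.9 and 53.5, 61.0 and 76.4, and 62.0 and 70.0 CPM, so early pool 2 went the other way. Foxp2 (-0.24, adjusted p 0.42), Cux2 (0.05, 0.93) and Rorb (0.03, 0.95) were not called. The signs of Cux2 and Rorb turned when late pool 1 was left out (-0.03 and -0.04), that of Rorb also without early pool 1 (-0.01).

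Bdnf, the neurotrophin whose transcription follows neuronal activity (chr2:109674700-109727007, plus strand), was higher in positive cells of every pool. It was at 178 CPM against 135, 228 against 183, 225 against 171, and 166 against 156, in the order above. The difference was smallest in late pool 2, and positive and negative values overlapped between pools. The log2 difference was 0.33 (SE 0.04, adjusted p 1.0e-04). Inhba, the activin A subunit (0.50, 0.0097), Ptgs2, the inducible cyclooxygenase (0.43, 0.011), Nptx2, a pentraxin that clusters AMPA receptors (0.27, 0.013), and Rgs2, a regulator of G protein signalling (0.24, 0.014), were called higher as well.

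These 5 were the called genes among 25 activity-induced effectors, none of them lower, and the list median was 0.11. Of 22 immediate early transcription factor genes none was called, with a median of 0.12. Fos, the gene whose promoter drives the recombinase, was at 198, 169, 177 and 162 CPM in positive and 170, 155, 172 and 145 in negative cells. It was above in 4 of 4 pools, with a log2 difference of 0.14 (SE 0.04) that did not pass the test (adjusted p 0.12). Egr1 (0.07, adjusted p 0.63), Npas4 (0.07, 0.75) and Arc (0.07, 0.72) did not pass either.

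Npy, the gene of neuropeptide Y, was called higher. It was at 42.7, 33.5, 38.6 and 18.8 CPM in positive and 21.5, 17.1, 27.7 and 13.5 in negative cells (log2 difference 0.75, SE 0.10, adjusted p 8.3e-05). C1ql3, a secreted synaptic organiser (0.27, adjusted p 0.0032), and Nrgn, the calmodulin-binding protein neurogranin (0.10, 0.0063), were also higher.

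Markers of other cell types differed with the reporter too, and their part in the differences above was measured by leaving out cells outside the glutamatergic-like clusters. Oligodendrocyte genes such as Mobp, Cldn11, Mbp and Cnp were higher, as were 3 of 5 endothelial and 3 of 4 mural genes. Microglial genes were lower in 6 of 9. Summed over 9 genes, oligodendrocyte markers were at 429, 101, 585 and 77.4 CPM in positive and 130, 72.9, 155 and 71.9 CPM in negative cells. Summed over 10, microglial markers ranged from 27.4 to 229 CPM in positive and 35.3 to 263 CPM in negative cells, lower in 4 of 4 pools. Of the marker lists, only the fibroblast one had a gene at 0 throughout (Igf2).

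The comparison was then limited to the glutamatergic-like clusters. There 2027 positive cells were matched, and 88 of 13147 genes were called (0.669%), 30 higher (0.228%) and 58 lower (0.441%). Of the 112 genes called before, 71 were called again in the same direction and 11 were no longer tested. None of the 4 oligodendrocyte, 2 endothelial, 2 mural and 8 microglial markers still tested was called, and the others, Cldn5, Flt1, Ly6c1 and Acta2 among them, did not pass the filter on low counts. Slc1a2, an astrocyte glutamate transporter gene, and Cd24a of the neuroblast list were called lower, as with UMIs matched. Npy, which is also on the interneuron list, was called higher, and so was Egr4, an immediate early gene. Tshz2 (-1.32, adjusted p 1.8e-13), Npy (0.75) and Bdnf (0.33) kept their sizes. Leaving out late pool 1 left 24 calls, early pool 1 left 11, early pool 2 left 40, and leaving out late pool 2 gave 182.

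More genes were called for the cells with at least 4 wpre UMIs. With 3 matched negatives for each, 439 of 9399 genes (4.67%) were called, 203 higher (2.16%) and 236 lower (2.51%). Without late pool 1 the count was 133, and without early pool 1 it was 226. In the glutamatergic-like clusters 426 of 9296 (4.58%) were called, 205 higher (2.21%) and 221 lower (2.38%). The lower genes included markers of corticothalamic, extratelencephalic, near-projecting and layer 6b neurons, and the higher ones included IT markers and activity-induced effectors. Some members of these lists went the other way: Pou3f1 of the extratelencephalic list was called higher (0.92), and Etv1, which is on the layer 4/5 IT and near-projecting lists, was called lower (-0.77).

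Rprm, which marks layer 6 corticothalamic neurons (chr2:54084093-54085552, minus strand), was at 117, 122, 95.04 and 44.0 CPM in the strongly positive cells of early pools 1 and 2 and late pools 1 and 2. In their negative partners it was at 458, 427, 387 and 146. The groups did not overlap, and the log2 difference was -1.96 (SE 0.09, adjusted p 1.8e-17). Control pools showed the same, at 35.6 against 281 and 89.7 against 306. Of 7 corticothalamic genes, 6 were called lower: Rprm, Foxp2 (-2.55), Hs3st4 (-1.34), Tle4 (-1.53), Syt6 and Ctgf. Foxp1, which IT neurons also express, was higher.

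Tshz2 was nearly absent from strongly positive cells. It was at 1.15, 0, 2.69 and 7.33 CPM, against 88.5, 90.7, 104 and 32.2 in the negative cells, and the groups did not overlap. Because it passed the filter on low counts through the negative cells alone, its log2 difference of -5.47 depends on the prior count. Crym, a thyroid hormone-binding protein of deep-layer neurons (-1.96, adjusted p 3.6e-11), Nxph3, a neurexin ligand (-2.40, 1.6e-10), and Fezf2 (-1.66, 1.4e-07) were lower in 4 of 4 pools.

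Cux2, the upper-layer homeobox gene (chr5:121856366-122050102, minus strand), was at 95.1, 68.6, 89.7 and 66.0 CPM in strongly positive and 43.9, 56.8, 51.1 and 44.6 in negative cells. Every positive value lay above every negative one, with a log2 difference of 0.81 (SE 0.14, adjusted p 2.7e-04). Rorb was at 135, 73.7, 137 and 161 against 70.6, 76.3, 64.1 and 102, higher in all but early pool 2 (0.83, SE 0.13, adjusted p 6.1e-05). Of 7 layer 2/3 genes tested, Cux2, Nptx2 and Lamp5 were called higher and none lower, with a median of 0.46, against 0.00 over all genes. Kcnab3, a potassium channel subunit (1.32, adjusted p 8.35e-08), and Camk2n1, an inhibitor of CaMKII (0.58, 6.1e-08), led the higher genes.

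Activity-induced genes were among the higher ones at this threshold too. Bdnf was at 237, 290, 295 and 205 CPM against 146, 170, 152 and 129, and the groups did not overlap (log2 difference 0.81, SE 0.09, adjusted p 1.2e-07). In the untrained controls it was at 224 against 131 and 263 against 146. Of 23 activity-induced effectors tested, 10 were called higher (Bdnf, Nrn1, Rgs4, Lingo1, Inhba, Scg2, Arc, Dusp6, Nptx2 and Per1) and none lower, with a median of 0.31.

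Arc, which regulates AMPA receptor endocytosis, was at 220, 183, 258 and 73.3 CPM against 156, 131, 198 and 86.7. It was higher in 3 pools and lower in late pool 2, which holds 15 strongly positive cells (0.41, SE 0.09, adjusted p 0.0047). Of 20 immediate early transcription factor genes, Nr4a1, Egr1, Fosl2 and Ier5 were called higher, and the median was 0.13. Egr1 was at 803, 737, 738 and 799 CPM against 627, 678, 629 and 552 (0.28, adjusted p 0.0067). Fos differed by 0.07 (SE 0.09, adjusted p 0.82) and Npas4 by 0.09 (SE 0.10, 0.77), neither of them called.

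Gt(ROSA)26Sor, the non-coding transcript of the locus that carries Ai9 (chr6:113067428-113077333, minus strand), was among the lower genes and was chosen for mention after its value was seen. It was at 85.9, 61.0 and 110 CPM in strongly positive cells of early pools 1 and 2 and late pool 1, against 116, 92.4 and 151. In late pool 2 it was at 117 against 99.1, the other way. The log2 difference was -0.42 (SE 0.12, adjusted p 0.028). Whether reads were counted by strand is not given in the sources used here, so that overlapping antisense transcripts cannot be told apart.

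**Figure D3:**
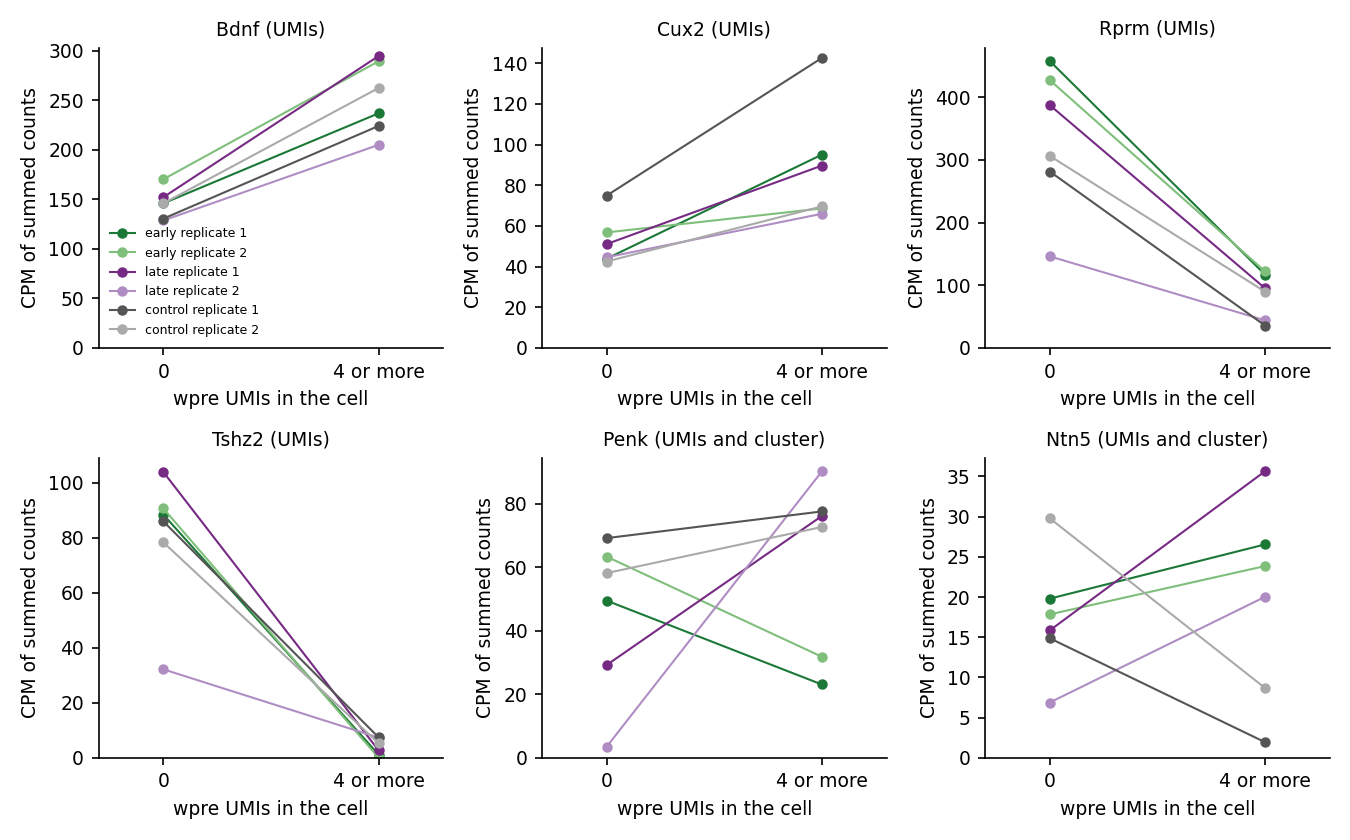
Levels (CPM of summed UMIs) in cells with no wpre and with 4 or more, joined for each of the 6 pools; negative cells were matched on UMIs for Bdnf, Cux2, Rprm and Tshz2 and on UMIs and cluster for Penk and Ntn5. Bdnf and Cux2 go up and Rprm and Tshz2 go down in all 6 pools.

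The comparisons were then repeated with layer identity matched. When each positive cell (at least 1 UMI) was paired with a negative cell of the same layer class, 51 of 13267 genes were called (0.384%), 23 higher (0.173%) and 28 lower (0.211%). The median size of the 112 original differences, in their original direction, went from 0.52 to 0.34 on the log2 scale, and it was 0.30 in the glutamatergic-like clusters with no layer matched. The layer-matched cells were not limited to those clusters, and their calls included 3 endothelial and 3 mural markers, higher, and 5 microglial markers, lower. Tshz2 stood at -0.83 (adjusted p 1.6e-07), Bdnf at 0.20 (0.0069), Inhba at 0.45 (0.025) and Nptx2 at 0.25 (0.0076), all still called. Of the immediate early genes, Egr4 and Jund were called higher. Npy (0.37, 0.16) and Lypd1 (-0.31, 0.083) no longer were. Leaving out early pool 1 left 9 calls and early pool 2 left 32.

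Matching on the second-level cluster, which separates near-projecting, layer 6b and corticothalamic-like cells, left 4 of 13052 genes (0.0306%), 1 higher (0.00766%) and 3 lower (0.023%). These cells were limited to the glutamatergic-like clusters. The median size of the original differences was then 0.08, against 0.30 for that limit alone, and 2 of the 99 still tested were called. Tshz2 differed by -0.13 (adjusted p 0.86), Bdnf by 0.15 (0.094) and Npy by 0.28 (0.67). The clusters were built from the same cells' expression, so that matching on them removes part of any difference in the genes that formed them. The count depended on the design, with 54 genes called with 3 negatives per positive, 140 without UMI matching and none with DESeq2 (55 at an unadjusted p under 0.05). Without early pool 2 no gene was called, and without late pool 2, 2 were.

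The 4 genes were Cplx3, Nefm and Rn7sk, all lower, and Coq10b, higher. Cplx3 was at 109, 82.8, 85.0 and 150 CPM in positive and 146, 125, 104 and 161 in cluster-matched negative cells, lower in 4 of 4 pools (-0.33, SE 0.05, adjusted p 2.9e-06). Nefm, the medium neurofilament subunit, was at 108, 117, 66.6 and 137 against 131, 155, 78.2 and 165 (-0.29, SE 0.04, adjusted p 3.2e-05). Coq10b, a coenzyme Q-binding protein, was at 83.9, 88.0, 104 and 81.7 against 71.1, 74.3, 93.3 and 61.5 (0.24, SE 0.05, adjusted p 0.043). Rn7sk, the 7SK small nuclear RNA (-0.30, adjusted p 7.2e-04), has near-identical copies in the genome and is uncertain.

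For the cells with at least 4 wpre UMIs the same steps left fewer calls. Matching on layer class left 29 of 9355 genes (0.31%), 9 higher (0.0962%) and 20 lower (0.214%), and matching on cluster 1 of 9370 (0.0107%), with 483 genes at an unadjusted p under 0.05. The median size of the 439 original differences went from 0.59 to 0.58 in glutamatergic-like clusters, to 0.24 with the layer class and to 0.08 with the cluster. Of the 439, 419 could still be tested with the cluster matched, 312 kept their sign and none was called in its original direction. Without early pool 1 or late pool 1 the layer-matched count was 15 or 19. The single cluster-matched call was lost without either of them, and leaving out late pool 2 gave 10.

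Single genes had different values under the 3 matchings. The layer class is set by Cux2, Rorb, Fezf2 and Foxp2, so that matching on it lowers their differences by construction. Rprm went from -1.96 to -0.93 with the layer class (adjusted p 9.0e-09) and -0.22 with the cluster (0.96), and Foxp2 from -2.55 to -1.02 (0.14) and -0.74 (0.89). Cux2 went from 0.81 to 0.30 (0.65) and 0.17 (0.98). Bdnf kept 0.40 with the layer class (adjusted p 0.0063) and 0.22 with the cluster (0.73). Arc stood at 0.41, 0.31 (0.18) and 0.29 (0.64), and Nrgn at 0.42, 0.32 (1.9e-05) and 0.14 (0.39). Gt(ROSA)26Sor moved least, from -0.42 to -0.51 (0.016) and -0.44 (0.23).

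Pcp4, a calmodulin regulator abundant in deep layers, was the 1 gene called after cluster matching, and its sign had turned. It differed by -0.80 with UMIs matched (adjusted p 1.9e-08), -0.20 with the layer class (0.27) and 0.26 (SE 0.05, 0.044) with the cluster.

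**Figure D4:**
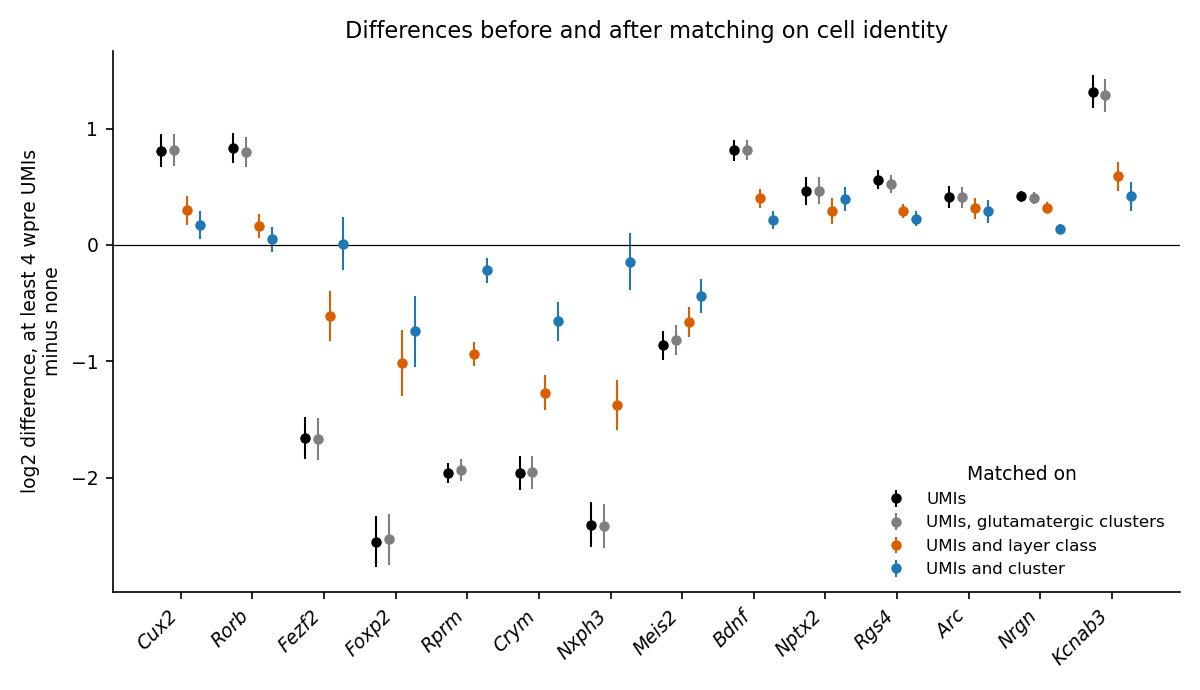
Log2 differences (cells with at least 4 wpre UMIs minus cells with none; points with SE from the fit over 4 pools) for 14 genes under 4 ways of matching the negative cells. The deep-layer genes Rprm, Nxph3, Crym and Foxp2 are nearer to 0 with the layer class matched and nearer again with the cluster. From UMIs to cluster, Rprm and Nxph3 go from -1.96 and -2.40 to -0.22 and -0.14. Crym and Foxp2 go less far, from -1.96 and -2.55 to -0.66 and -0.74.

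**Figure D5:**
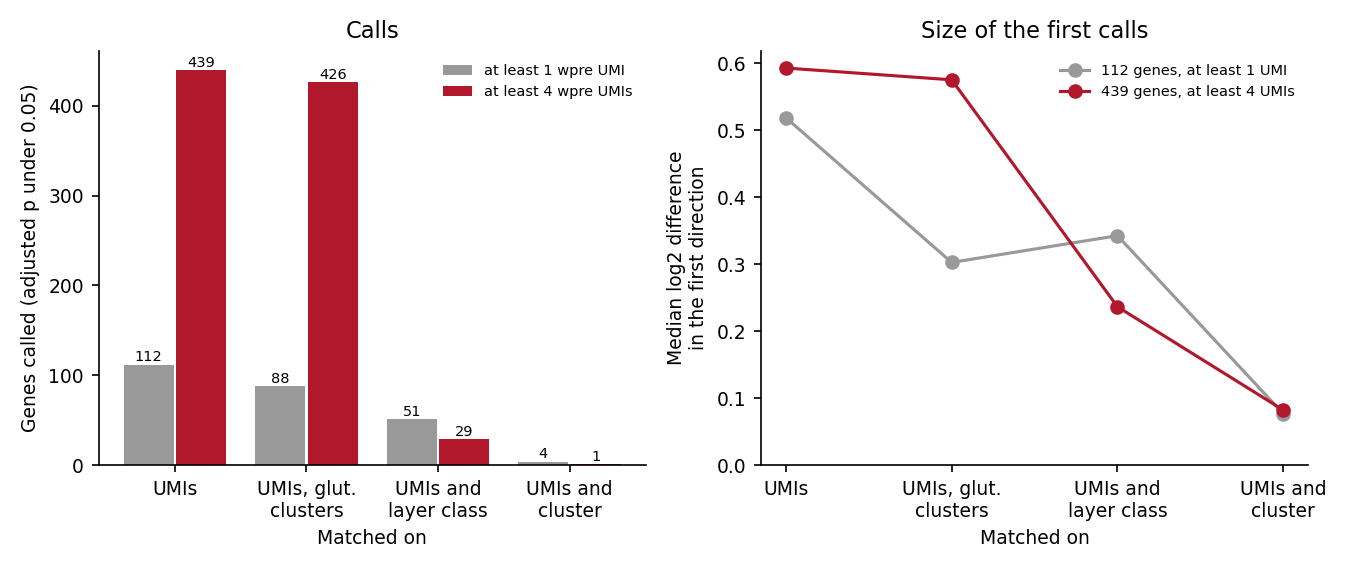
Left, genes called at an adjusted p under 0.05 for cells with at least 1 or at least 4 wpre UMIs; right, median log2 size, in the original direction, of the genes called with UMIs matched. Calls fall from 112 to 4 with 1 negative per positive (at least 1 UMI) and from 439 to 1 with 3 negatives (at least 4), so that the series are not comparable in height; with the designs exchanged they fall from 262 to 54 and from 221 to 0. The median size goes from 0.52 and 0.59 to 0.08 in both.

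Within single layer classes, at the threshold of 1 UMI, few genes were called. In the Cux2 class 12 of 8960 genes were (0.134%), 2 higher (0.0223%) and 10 lower (0.112%), the latter led by Nr4a2, Synpr, Lxn, Gnb4 and Sstr2. In the Rorb class 4 of 8808 were called (0.0454%), 2 in each direction (0.0227%), Arc being higher (log2 difference 0.40). The Fezf2 class had 22 of 9009 (0.244%), 8 higher (0.0888%) and 14 lower (0.155%), with Tshz2 (-0.83), Etv1 (-0.64) and Meis2 (-0.67) lower and Nnat (1.20), Npy (1.37) and Nptx2 (0.73) higher. In the Foxp2 class 2 of 8680 were called (0.023%), Hbb-bs and Cplx3 (-1.21). Cells with none of the 4 genes gave 34 of 10098 (0.337%; 25 higher, 0.248%, and 9 lower, 0.0891%), but 1 when only glutamatergic-like clusters were used, and mixed cells gave 6 of 6729 (0.0892%; 1 higher, 0.0149%, and 5 lower, 0.0743%). Whether the classes differ from each other was not tested.

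Whether the positive against negative difference depended on training stage was tested as an interaction over the 4 pools, 2 per stage. At 1 UMI, 15 of 13294 genes were called (0.113%), with 8 differences higher in late pools (0.0602%) and 7 lower (0.0527%). Among them were the microglial genes Ccl3, C1qb and C1qa and the vascular gene Vtn. None of 13052 (0%) was called with the cluster matched, where 645 were at an unadjusted p under 0.05. The count with UMIs matched ranged from 1 without early pool 1 to 58 without late pool 2, with 38 without early pool 2 and 8 without late pool 1. At 4 or more UMIs, 3 of 9399 genes were called (0.0319%), Pcp4, Cplx3 and Rgs5.

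With the cluster matched, 1 of 9370 genes (0.0107%) was called at 4 or more wpre UMIs. This was Penk, which encodes the opioid peptide precursor proenkephalin (chr4:4133531-4138819, minus strand), described after its value was seen. In early pool 1 it was at 23.1 CPM in strongly positive and 49.5 in negative cells, and in early pool 2 at 31.8 and 63.3. In late pool 1 it was at 76.1 and 29.2, and in late pool 2 at 90.1 and 3.44. The strongly positive cells were lower in both early pools and higher in both late pools.

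The late minus early log2 difference of Penk was 2.60 (SE 0.36, adjusted p 7.7e-07). It stayed between 2.45 and 5.74 and was called with each pool left out in turn. Without late pool 1 it was 5.74, and the count of called genes was 5; without late pool 2 the count was 3 and without early pool 1 it was 2. Few cells carried it: 9 of 58 strongly positive cells in early pool 1, 9 of 57 in early pool 2, 21 of 103 in late pool 1 and 3 of 13 in late pool 2. In late pool 2 only 1 of 39 negative cells did. In the controls Penk was at 77.5 against 69.1 CPM and 72.7 against 58.1.

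Trained and control pools were compared in the same way over 6 pools. At 1 UMI, 5 of 13255 genes were called (0.0377%), 1 higher in trained pools (0.00754%) and 4 lower (0.0302%): the haemoglobin genes Hba-a1, Hba-a2, Hbb-bs and Hbb-bt, and Mobp of oligodendrocytes. With the cluster matched 1 of 12948 was (0.00772%), Cplx3, with a lower difference in trained pools. This is the opposite of its direction at 4 or more UMIs with UMIs matched. At 4 or more UMIs, 4 of 9405 were called (0.0425%), Cplx3, Ctgf and Ntn5 with a higher (0.0319%) and Grp with a lower difference (0.0106%) in trained pools, and with the cluster matched 1 of 9334 (0.0107%), Ntn5.

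Ntn5, a member of the netrin family (chr7:45684022-45694556, plus strand), was at 26.5, 23.9, 35.7 and 20.0 CPM in strongly positive cells of the trained pools. In cluster-matched negative cells it was at 19.8, 17.8, 15.8 and 6.88. In the controls it was at 1.94 against 14.9 and 8.68 against 29.8. Strongly positive cells were higher in 4 of 4 trained and lower in both control pools, with a trained minus control log2 difference of 2.75 (SE 0.49, adjusted p 0.0032). The directions in late pool 2 and control pool 1 rest on very few UMIs. For Tshz2 in the same sums, 1 UMI was 3.44 CPM in the negative cells of late pool 2. There, 5 UMIs were 9.69 CPM in the strongly positive cells of control pool 1. The call was lost without control pool 1 (adjusted p 0.098), control pool 2 (0.62) or late pool 1 (0.32).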

How the data were processed

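The authors' deposited matrices for 12 motor cortex libraries hold counts: whole numbers of UMIs, not normalized, for each gene in each barcode. They were made with Cell Ranger 3.1.0 on GRCm38 per the submitters' processing notes, while the file headers name software version 3.0.2. The libraries came from kit v2 or v3 per the labels, without saying which. The 12 striatal libraries were not used here. Positions are from GENCODE (GRCm38).

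Barcodes with under 500 genes or under 1000 UMIs, or with over 20% of UMIs from mitochondrial genes, were dropped. Scrublet removed the top 0.8% of cells per 1000 barcodes (2376 cells). Cells were clustered with scanpy 1.11.5 and leidenalg 0.10.2 (2000 variable genes, 40 components, 20 neighbours, resolution 1.5, and 1 within glutamatergic-like cells), without reporter genes. Clusters were named from at least 3 markers in 20% of cells at 2 times the median cluster, a rule tuned after the clusters were seen.

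Positive and matched negative cells were summed per pool, and counts were tested with edgeR 4.0.16 (R 4.3.3; TMM, filterByExpr, quasi-likelihood F test, pool as block), adjusted by Benjamini-Hochberg over all genes tested. The rule's genes, tdtomato and Neo were left out of tests. Pools of different mice are the replicates. The test was also tried on data simulated from the real sums. Changes were planted in 200 genes above a set mean level, so that the rates below do not cover genes with lower counts. At 1 wpre UMI it recovered 74% (UMIs matched) and 84% (cluster matched) of log2 changes of 0.25. At 4 or more it recovered 6.5% and 15% of these, 55% and 66% of changes of 0.5, and 99% of changes of 1. The highest share of false calls was 7.14%.

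Members, gene lists and tests were chosen with earlier results of these data known. Named genes were wpre, tdtomato and Slc17a7, the 4 layer genes, Fos, Arc, Egr1 and Npas4, and the 12 genes in each direction with the smallest adjusted p among those called with UMIs matched and again in glutamatergic-like clusters, with 4 pools on 1 side. Up to 4 called members of each list were added. Some of these genes are not reported here. Alternatives were DESeq2 1.42.0, RLE factors, no filter, no block, other thresholds and matchings, and each pool left out. At 4 or more wpre UMIs all tests, and Gt(ROSA)26Sor, Penk and Ntn5, were chosen after seeing the data.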

Additional observations from a re-analysis of the deposited data

Results flagged for a closer look

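Of 32 genes at 1 wpre UMI and 30 at 4 or more that were examined over the 4 trained pools, 3 had a lone pool whose gap to the others passed Dixon's critical value. Chance gives about 1 in 20 such groups. Egr1 at 1 UMI differed by 0.26 (log2) in early pool 1, while the other pools lay between -0.011 and -0.00033. Bok, a gene of the Bcl-2 family, differed by 0.46 in late pool 2 at 4 or more UMIs, against 0.73 to 0.76 in the others. Arc at 4 or more UMIs stood at -0.24 in late pool 2, which has 15 such cells, against 0.38 to 0.49.

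The share of members with at least 4 wpre UMIs, contralateral minus ipsilateral, was 1.18 percentage points higher on average in the late than in the early pools. It was -0.30 and -0.19 in early pools 1 and 2 and 1.64 and 0.22 in late pools 1 and 2. Each stage lay on its own side of 0, and the difference was not tested. These shares rested on 27 contralateral and 32 ipsilateral cells in early pool 1 and 26 and 34 in early pool 2. In late pool 1 they rested on 71 and 38, and in late pool 2 on 9 and 6. The share with at least 1 wpre UMI after thinning to equal depth did not split by stage. It was 9.10% contralateral and 8.79% ipsilateral in early pool 1 and 6.06% and 6.79% in early pool 2. In late pools 1 and 2 it was 9.66% and 8.04%, and 3.92% and 4.23%.

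The interaction tests of the differences between stages called 15 genes at 1 UMI, 3 at 4 or more and 1, Penk, at 4 or more with the cluster matched. Those between trained and control pools called 5, 4 and 1, the last being Ntn5. Their values stand in the report.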

How the results depend on the processing

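Counts of called genes depended on the number of cells and the test. With 112 genes called at 1 UMI (UMIs matched), 88 (glutamatergic-like clusters), 51 (layer class) and 4 (cluster), DESeq2 gave 7, 9, 4 and 0 and 3 negatives per positive gave 262, 252, 236 and 54. Dropping the UMI matching gave 817, 759, 321 and 140, thinning to 2000 UMIs 67, 16, 28 and 0, and 1 to 3 wpre UMIs 54, 42, 41 and 4. Cells with at least 4 UMIs gave 221, 206, 5 and 0 with 1 negative each, and 439, 426, 29 and 1 with 3. A threshold of 2 UMIs gave 147 in glutamatergic-like clusters and 2 with the cluster. Without the filter on low counts 139 and 8 were called with the layer class and the cluster, and without cell and doublet filters 104 with the layer class. At 4 or more UMIs DESeq2 gave 83, 79, 5 and 0.

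Without the replicate block, so that pools were not paired, no gene was called at 1 UMI in any of the 4 matchings (0), and 19, 19, 2 and 0 at 4 or more. The positive and negative cells of a pool come from the same mice. With each pool left out in turn the 4 counts ranged over 17 to 133, 11 to 182, 9 to 64 and 0 to 5 at 1 UMI, and 133 to 482, 122 to 487, 15 to 39 and 0 to 10 at 4 or more. The late against early count ranged over 1 to 58 (3 with sums per library and 3 with another matching order, and 0 with the cluster). The trained against control count ranged over 3 to 11 (1 with the cluster). The cluster-matched counts at 4 or more UMIs ranged over 1 to 5 and 0 to 2. Within the Foxp2 class another matching order gave 4 genes and glutamatergic-like clusters 1, and within cells of no class these clusters gave 1.

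Layer class share differences with a pool left out ranged over 0.22 to 0.94 (Cux2), -0.75 to 1.09 (Rorb), -4.34 to -2.15 (Fezf2), -3.54 to -0.50 (Foxp2), -0.26 to 0.67 (mixed) and 3.05 to 4.88 (none) percentage points. Mixed cells stood at -0.27 after thinning. The positive share per pool at 2 UMIs was 8.48%, 3.76%, 7.16% and 1.85%, and thinned 8.94%, 6.46%, 8.93% and 4.08%. Of 848 values of 43 genes under alternatives, 650 kept side and direction, 150 lost and 19 gained the call, and 29 changed sign. Cux2 changed to -0.046 at 1 to 3 UMIs, -0.017 with 3 negatives and -0.11 without UMI matching. Rorb changed to -0.089, -0.10 and -0.29 there, and to -0.019 without the block. At 4 or more UMIs (1 negative, then 3) Nnat stood at -0.28 and -0.20, Jund at -0.064 and -0.034, and Snap25 at 0.032 and 0.082. With 1 negative, Fos was -0.0062, Npy -0.14 and Cpne4 0.052, and with 3, Nefm 0.12. Snap25 (0.017) and Hsp90ab1 (0.018) changed without UMI matching, and mt-Nd1 (0.0015) at 4000 UMIs. With a pool left out, ranges that crossed 0 were -0.025 to 0.11 for Cux2, -0.043 to 0.095 for Rorb, -0.0086 to 0.099 for Egr1, -0.023 to 0.12 for Npas4, -0.015 to 0.011 for Snap25, -0.016 to 0.0061 for mt-Cytb and -0.019 to 0.0052 for mt-Nd1. The causes were not tested.

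A single wpre UMI is near the microglial share, and 15 to 109 cells per trained pool limit the 4-UMI tests. The kit was not given per library. Late pool 1 and control pool 1 shared only 0 to 3 cell barcodes per pair of libraries with the remaining pools. Whether they differ from those pools in kit was not tested.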

Other observations

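Gene groups of the synapse and of excitability that the report has not described were counted in the same way. At 1 wpre UMI with UMIs matched, 0.842% of all genes were called, with a median log2 difference of 0.00 over all genes. There 1 of 20 ionotropic glutamate receptor and auxiliary subunit genes was lower (Grik1, median 0.01). None of 11 GABA-A receptor genes (median 0.00) and none of 22 vesicle release genes (0.00) was called. Of 34 potassium channel genes Kcnk2 was lower (median 0.00), of 23 sodium and calcium channel genes Scn4b (median -0.03), and of 13 neurofilament and axonal genes Nefm (median -0.03). Of 26 postsynaptic scaffold and calcium signalling genes Nrgn was higher (median 0.00). None of 12 heat shock genes (median -0.02) and none of 13 mitochondrially encoded genes (-0.01) was called.

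At 4 or more wpre UMIs, where 2.16% of all genes were called higher and 2.51% lower, 7 of 34 potassium channel genes were higher (Kcnq5, Kcnb2, Kcnh5, Kcnv1, Kcnip2, Kcnc1 and Kcnc2) and 2 were lower (Kcnc4 and Kcnmb4), at a median of 0.01. Of the calcium channel genes, Cacna2d3, Cacna1g, Cacna1b and Cacna1i were higher. Of the postsynaptic genes, Nrgn, Camk2a and Ppp3ca were higher and Camk2d was lower. Of 22 vesicle release genes Stx1a and Syt4 were higher and Cplx2, Sv2a and Syt7 lower (list median -0.07). Gap43, Map1b and Ina, of 13 neurofilament and axonal genes, were lower (list median -0.09). With the layer class matched, Nrgn was the only gene of these lists still called. Of 11 heat shock genes, which tissue dissociation can induce, Hsp90ab1 was lower (list median -0.05).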
